A study of Mus musculus with 23 samples.

Results

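The 10 genes described here are the transcription factor gene Nfe2l2, which encodes NRF2, and 9 antioxidant genes known as NRF2 targets, Nqo1, Gclc, Gclm, Txnrd1, Srxn1, Hmox1, Gsr, Prdx1 and Osgin1. They were chosen by name from the 22852 genes listed in both deposited tables, with earlier results of these data known. All 10 passed the filter on low counts in each sex. Bulk liver RNA was sequenced in mice on the B100 background. There were 5 control and 6 LKO males, and 6 control and 6 LKO females, where LKO is the hepatic ablation of Cpt1a. All groups, controls included, had eaten the diet labelled WD for 16 weeks and were killed in the fed state. How the ablation was made is not given in the sources used here, and the labels do not say whether every library came from a separate animal, so p-values measure the spread between these libraries. The comparison asked whether transcripts of the NRF2 antioxidant response differ between LKO and control livers. Cpt1a encodes the enzyme that starts the import of long-chain fatty acids into mitochondria.

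NRF2 is held in the cytosol by KEAP1, which passes it to a ubiquitin ligase for degradation. Oxidants and electrophiles modify cysteines of KEAP1, NRF2 then accumulates, enters the nucleus with a small MAF protein and binds antioxidant response elements near its target genes. The targets make glutathione, reduce thioredoxin and quinones, break down haem and supply NADPH, and in the liver the pathway is best known for protection against toxic metabolites of drugs. Since NRF2 is controlled mainly through its protein, the level of its transcript is not a measure of its activity.

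Promoter sequence was available for 7 of the 10 genes, from RefSeq on build GRCm38.p6, in windows of 250 bases before to 50 after each annotated start. The core letters of the antioxidant response element, TGACNNNGC, were searched on both strands. A match lay in the windows of 5 of these 7 genes, against 14 percent of 27025 genes. Genes with more starts have more windows, and by window it was 5 of 9, against 12.4 percent of 32851. The 4 matches before a start are shown because they are the letters through which NRF2 is known to recognise DNA. Each is printed 5′ to 3′ along the strand of its gene, with the match in capitals, and a match on the opposite strand reads as GCNNNGTCA.

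Nfe2l2: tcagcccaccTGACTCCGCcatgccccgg
Gclm: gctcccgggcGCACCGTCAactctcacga
Txnrd1: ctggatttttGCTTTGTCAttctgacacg
Prdx1: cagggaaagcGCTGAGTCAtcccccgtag

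On GRCm38.p6 the stretch of Nfe2l2 lies at chr2:75704885-75704913 on the minus strand. That of Gclm lies at chr3:122245413-122245441, that of Txnrd1 at chr10:82859104-82859132 and that of Prdx1 at chr4:116685456-116685484, all on the plus strand. Txnrd1 has 3 annotated starts, and 1 of them had the match. The match of Srxn1 lay past its start and is not shown, and these letters were not in the windows of Nqo1 and Osgin1. A match describes the letters in the window and is no evidence of binding in these livers.

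Total counts per library ran from 14224665 to 19626662. Control male replicate 4 had the lowest total, the fewest genes with counts at 18232 and the lowest median correlation with its group, 0.9749, so values without it are given beside the results on NRF2 genes that it moves most. Cpt1a checked the labels. Its level in CPM (counts scaled to a common library size with TMM factors) was 357 ± 50.3 in control males (SD, n = 5) and 63.0 ± 20.2 in LKO males (SD, n = 6). In females it was 387 ± 59.1 in controls and 75.9 ± 8.87 in LKO livers (SD, n = 6 each), and the LKO and control values did not overlap in either sex. The summed level of 6 hepatocyte markers, none at 0, was 53613 to 78648 CPM in control males and 50287 to 69945 in LKO males, with medians of 63076 and 52880. In females it was 78063 to 93957 CPM in controls and 53086 to 85186 in LKO livers, with medians of 82193 and 73018. Of the 6 markers, 1 in males and 0 in females had a log2 fold change above 0, 0 were called in either sex, and their part in the results was not tested. In bulk tissue, fewer cells of a type and less RNA per cell cannot be told apart.

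Per length, in the FPKM that the authors deposited (fragments per kilobase of gene, scaled to library size), the peroxidase gene Prdx1 was the most abundant of the 10, at 303 ± 27.2 FPKM over the 23 livers (SD). Gclc followed at 43.6 ± 13.1, Gclm at 29.1 ± 2.66, Srxn1 at 23.6 ± 11.6, Osgin1 at 23.3 ± 6.32, Hmox1 at 23.1 ± 5.24 and Gsr at 22.96 ± 4.72 FPKM. From Gclm to Gsr, neighbours in this order differed by less than the larger of their SDs. Nfe2l2 was at 16.2 ± 2.84, Txnrd1 at 14.4 ± 1.90 and Nqo1 lowest at 6.89 ± 2.19 FPKM. Nqo1 still exceeded 70.8 percent of the genes tested, and Prdx1 exceeded 98.8 percent.

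Between LKO and control livers none of the 10 transcripts passed the test in either sex. In males, 0 of 10 had an edgeR quasi-likelihood adjusted p under 0.05 (Benjamini-Hochberg over all genes), beside 0.00724 percent of 13805 genes, which is Cpt1a alone. In females, 0 of 10 passed, beside 1.42 percent of 13684 genes. In the fit of both sexes with sex as a term, 0 of 10 passed, beside 0.365 percent of 14503 genes. At an unadjusted p under 0.05 there were 1 of 10 in males, 2 of 10 in females and 2 of 10 in both sexes, beside 12.5, 15.6 and 13.9 percent of all genes, so these shares are near the background. The DESeq2 test also called 0 of the 10 in these comparisons, beside 0.826, 4.09 and 1.8 percent of all genes. For no member did the LKO and control values of a sex lie fully apart, beside 1.74 percent of genes in males and 1.58 percent in females.

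The estimates lay mostly above 0 and were small. In males 8 of 10 log2 fold changes were above 0, with a median of 0.19, beside 52.1 percent of all genes and their median of 0.010. In females 7 of 10 were above 0, with a median of 0.056, beside 51.1 percent and 0.0051. Over both sexes, which uses the same livers, 9 of 10 were above 0, with a median of 0.12, beside 52.2 percent and 0.0082. Control male replicate 6 was the lowest control male for 6 of the 10 genes. Without it, 9 of 10 male estimates were above 0, with a median of 0.0997. Without control male replicate 4, 10 of 10 male estimates were above 0, with a median of 0.16. LKO female replicate 6 was the highest LKO female for 5 of the 10 genes. Without it, 5 of 10 female estimates were above 0, with a median of -0.0020. The 95% intervals of the 10 log2 fold changes over both sexes all lay between -0.27 and 0.71, a fold of 0.831 to 1.63.

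**Figure D1:**
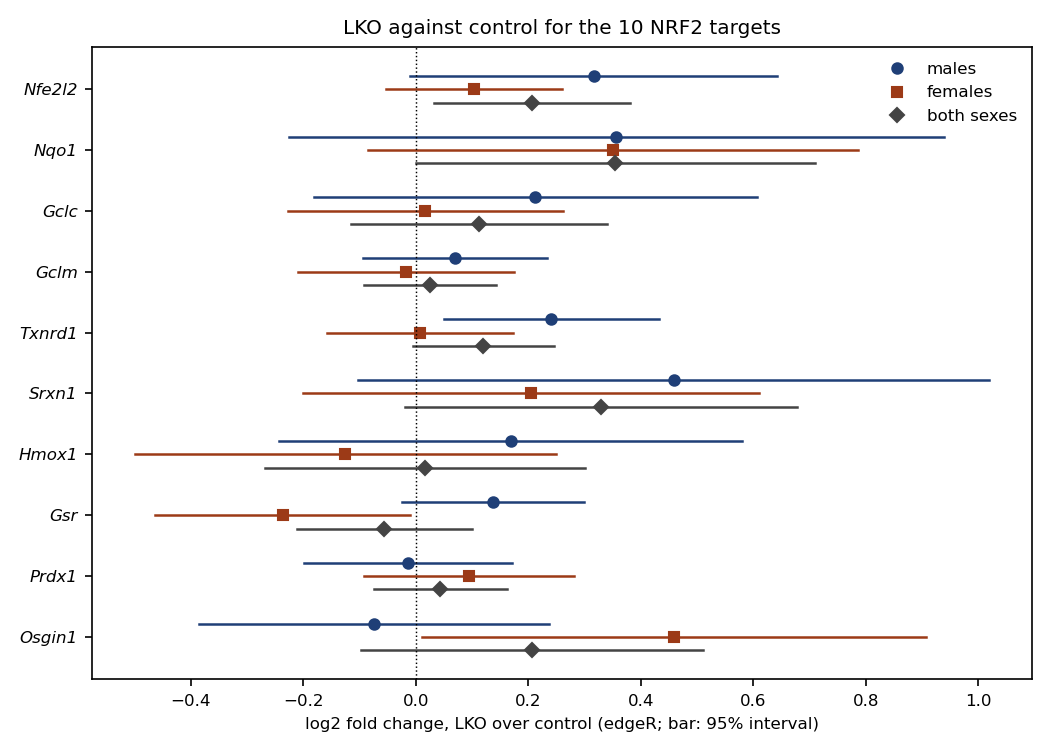
Log2 fold change of LKO over control (horizontal axis) for the 10 NRF2 genes (rows), from edgeR fits of 11 males (circles), 12 females (squares) and both sexes (diamonds), with 95% intervals as bars. All estimates lie between -0.24 and 0.46, and none passed an adjusted p of 0.05.

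The regulator came first. Nfe2l2 (ENSMUSG00000015839, chromosome 2, 75505857 to 75534985, minus strand, as are all positions below in the coordinates of the deposited tables, for which the processing notes name mm39) measured 68.9, 67.3, 66.9, 49.9 and 40.5 CPM in control males 1, 2, 3, 4 and 6. In LKO males its lowest, median and highest values were 57.8, 72.9 and 92.2 CPM. In females they were 50.4, 55.8 and 61.6 CPM in controls and 54.1, 59.7 and 66.0 CPM in LKO livers. The groups overlapped in both sexes, and 2 control males lay below every LKO male. The log2 fold change was 0.32 in males (SE 0.15, edgeR adjusted p = 0.414), 0.10 in females (SE 0.074, adjusted p = 0.545) and 0.21 over both sexes (SE 0.085, unadjusted p = 0.0221, adjusted p = 0.273). Without control male replicate 6 the male value was 0.21.

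**Figure D2:**
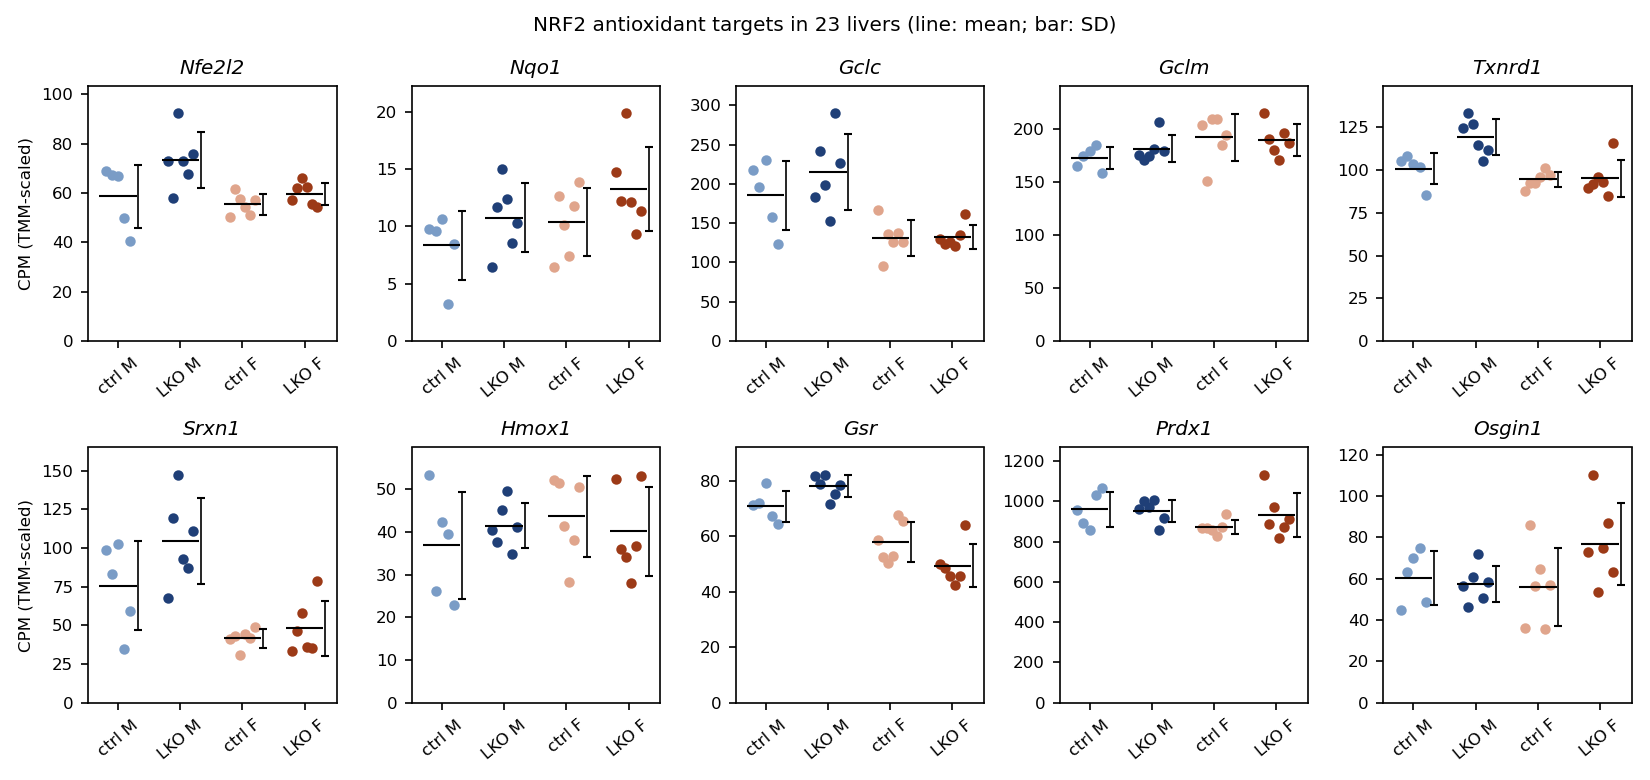
CPM scaled by TMM factors (vertical axes, from 0) of each of the 10 genes in the 23 livers, with control males (ctrl M), LKO males (LKO M), control females (ctrl F) and LKO females (LKO F) as points in columns, the mean as a line and the SD as a bar. The control and LKO points overlap within each sex for every gene. For Srxn1 the control males run from 34.9 to 103 CPM and the control females from 30.5 to 48.6 CPM.

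Nqo1 encodes a quinone reductase that turns quinones into hydroquinones in a single step and is widely used as a readout of NRF2 (ENSMUSG00000003849, chromosome 8, 108114857 to 108129838, minus strand). It measured 9.75, 9.64, 10.7, 3.21 and 8.43 CPM in control males 1, 2, 3, 4 and 6, and 6.45, 11.01 and 15.1 CPM as the lowest, median and highest of the LKO males. Replicate 4 stood well below the other controls and below all 11 males. In females the lowest, median and highest values were 6.47, 10.95 and 13.9 CPM in controls and 9.32, 12.2 and 19.9 CPM in LKO livers. In males its log2 fold change was 0.36 (SE 0.27, edgeR adjusted p = 0.630) and in females 0.35 (SE 0.20, adjusted p = 0.440). Over both sexes it was 0.35 (SE 0.17, unadjusted p = 0.0498, adjusted p = 0.358), the largest estimate of the 10 in that fit. Without control male replicate 4 the male value was 0.16. The authors' deposited table for males lists a p of 0.193 and an adjusted p of exactly 1 for Nqo1, whereas Gclc, with a p of 0.268 there, has an adjusted p of 0.633.

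Glutathione synthesis starts with glutamate-cysteine ligase, whose catalytic subunit is made by Gclc and whose modifier subunit is made by Gclm. Gclc (ENSMUSG00000032350, chromosome 9, 77661817 to 77701767, plus strand) measured 218, 197, 231, 158 and 124 CPM in control males 1, 2, 3, 4 and 6, and from 153 to 290 CPM with a median of 212 in LKO males. Its values in females were lower, with a lowest, median and highest of 95.2, 131 and 166 CPM in controls and of 120, 128 and 162 CPM in LKO livers. The 2 groups of each sex overlapped. For Gclc the log2 fold change was 0.21 in males (SE 0.18, edgeR adjusted p = 0.681) and 0.017 in females (SE 0.11, adjusted p = 0.965). Without control male replicate 6 the male value was 0.096. Gclm (ENSMUSG00000028124, chromosome 3, 122039206 to 122064381, plus strand) was steadier, from 151 to 215 CPM in all 23 livers, with log2 fold changes of 0.069 in males and -0.017 in females. Its 95% interval over both sexes was -0.092 to 0.14 on the log2 scale.

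Gsr encodes glutathione reductase, which returns oxidised glutathione to its reduced form with NADPH (ENSMUSG00000031584, chromosome 8, 34142551 to 34188191, plus strand). It measured 71.1, 71.9, 79.0, 67.4 and 64.2 CPM in control males 1, 2, 3, 4 and 6. The lowest, median and highest values were 71.5, 78.6 and 82.1 CPM in LKO males, 50.4, 55.8 and 67.6 CPM in control females and 42.4, 46.9 and 64.1 CPM in LKO females. The LKO values lay towards the upper end in males and towards the lower end in females, with overlap in both. The log2 fold change was 0.14 in males (SE 0.075, edgeR adjusted p = 0.478) and -0.24 in females (SE 0.11, unadjusted p = 0.0419, adjusted p = 0.299). LKO female replicate 6, at 64.1 CPM, lay above the other 5 LKO females, which ended at 49.8. Without this library the female value was -0.32 (SE 0.091, edgeR adjusted p = 0.0935).

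Gsr was the member with the lowest p for a difference between the sexes. The interaction, the log2 fold change of females minus that of males, was -0.37 (SE 0.13, unadjusted p = 0.00962, edgeR adjusted p = 0.271). Without LKO female replicate 6 it was -0.46 (SE 0.11, edgeR adjusted p = 0.130). Of the 10 genes, 0 passed the interaction test, beside 0 percent of 14503 genes. Without control male replicate 4, 17 of all genes passed and still 0 of the 10. At an unadjusted p under 0.05 there was 1 of 10, beside 12.9 percent of all genes, and DESeq2 called 0, beside 0.669 percent. The response of the members was therefore not shown to differ between the sexes at this size, and the intervals of the 10 differences ran from -0.95 to 1.11 on the log2 scale.

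Txnrd1 encodes cytosolic thioredoxin reductase, which keeps thioredoxin reduced (ENSMUSG00000020250, chromosome 10, 82669785 to 82733546, plus strand). It measured 105, 108, 104, 102 and 85.4 CPM in control males 1, 2, 3, 4 and 6 and had a lowest, median and highest value of 105, 120 and 133 CPM in LKO males. Only the LKO male at 105 CPM lay within the range of the controls. This was the 1 member past an unadjusted p of 0.05 in males, with a log2 fold change of 0.24 (SE 0.089, unadjusted p = 0.0173, edgeR adjusted p = 0.309). Without control male replicate 6 the male value was 0.19 (SE 0.084, edgeR adjusted p = 0.586). In females the values were 87.8, 94.4 and 101 CPM in controls and 84.6, 92.4 and 116 CPM in LKO livers, and the log2 fold change was 0.0070 (SE 0.077, adjusted p = 0.980). Without LKO female replicate 6 the female value was -0.056. The authors' deposited table also has Txnrd1 as the member with the lowest adjusted p in males, 0.156. The interaction was -0.23 (SE 0.11, edgeR adjusted p = 0.387).

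Srxn1 encodes sulfiredoxin, which repairs peroxiredoxins that have been over-oxidised (ENSMUSG00000032802, chromosome 2, 151947436 to 151953296, plus strand). It measured 98.5, 83.4, 103, 34.9 and 59.0 CPM in control males 1, 2, 3, 4 and 6. In LKO males the lowest, median and highest values were 68.0, 102 and 147 CPM. Control males thus spread over a wide range, with replicate 4 below all other males. The log2 fold change in males was 0.46 (SE 0.26, edgeR adjusted p = 0.494), the largest estimate of the 10 there, and 0.28 without control male replicate 4. In females the values were 30.5, 42.4 and 48.6 CPM in controls and 33.6, 41.1 and 79.0 CPM in LKO livers, with a log2 fold change of 0.20 (SE 0.19, adjusted p = 0.669). The highest LKO female was replicate 6, and without it the value was 0.0073.

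Prdx1 encodes a peroxiredoxin that removes hydrogen peroxide and is a substrate of sulfiredoxin (ENSMUSG00000028691, chromosome 4, 116542741 to 116558019, plus strand). Its values in all 23 livers ran from 816 to 1132 CPM. The mean was 961 ± 87.2 CPM in control males (SD, n = 5) and 953 ± 56.8 in LKO males (SD, n = 6), and 873 ± 36.7 in control females and 932 ± 111 in LKO females (SD, n = 6 each). These groups overlapped broadly. The log2 fold change was -0.014 in males and 0.094 in females, and its 95% interval over both sexes was -0.074 to 0.16. RefSeq annotates a pseudogene copy of Prdx1, and how the authors' counting treated reads shared with it is not given in the sources used here.

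Osgin1, an oxidative stress-induced growth inhibitor gene (ENSMUSG00000074063, chromosome 8, 120160863 to 120172995, plus strand), measured 44.9, 63.1, 70.2, 74.8 and 48.7 CPM in control males 1, 2, 3, 4 and 6. The lowest, median and highest values were 46.1, 57.4 and 71.9 CPM in LKO males, 35.6, 56.7 and 85.8 CPM in control females and 53.5, 73.8 and 110 CPM in LKO females. LKO females were spread around a higher level than control females but overlapped them. In females the log2 fold change was 0.46 (SE 0.21, unadjusted p = 0.0449, edgeR adjusted p = 0.306), and in males it was -0.073 (SE 0.14, adjusted p = 0.886). Without control male replicate 4, the highest control male, the male value was 0.012. The interaction was 0.53 (SE 0.28, edgeR adjusted p = 0.429). In the authors' deposited table Osgin1 had the lowest adjusted p of the members in females, 0.267.

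Hmox1 encodes haem oxygenase 1, which opens the haem ring to biliverdin, iron and carbon monoxide, and which macrophages that take up red cells express strongly (ENSMUSG00000005413, chromosome 8, 75820249 to 75827217, plus strand). It measured 53.4, 26.2, 42.4, 39.4 and 22.8 CPM in control males 1, 2, 3, 4 and 6. The lowest, median and highest values were 34.8, 40.9 and 49.7 CPM in LKO males, 28.2, 46.0 and 52.3 CPM in control females and 28.1, 36.3 and 53.2 CPM in LKO females. All 4 groups overlapped. The log2 fold change was 0.17 in males (SE 0.19, edgeR adjusted p = 0.776), -0.13 in females (SE 0.18, adjusted p = 0.797) and 0.017 over both sexes. Without control male replicate 6 the male value was 0.036. Without LKO female replicate 6 the female value was -0.22 and that over both sexes -0.025.

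From liver to liver, Hmox1 moved with markers of Kupffer cells, the resident macrophages of the liver. The summed CPM of 7 Kupffer cell markers, all detected, ran from 330 to 675 in control males, 527 to 763 in LKO males, 545 to 1056 in control females and 651 to 1049 in LKO females, and 0 of the 7 were called in either sex. With the mean of each group removed, log2(CPM + 1) of Hmox1 and of this sum had a Pearson r of 0.83 over 23 livers (two-sided permutation p = 6.00e-05) and a Spearman rho of 0.76 (permutation p = 0.000250). The relation was chosen after the data were seen, and Hmox1 was compared with no other marker sum. It held within males at an r of 0.83 and a rho of 0.78 (n = 11, permutation p = 0.0101 and 0.0215) and within females at an r of 0.84 and a rho of 0.78 (n = 12, permutation p = 0.00173 and 0.00590). Without the 2 livers farthest from the median it was 0.74. Among 14502 genes, the 3 most like Hmox1 by r were Ifi30 at 0.88, Adgre5 at 0.88 and Adgre1, which encodes the macrophage antigen F4/80, at 0.87. Adgre1 is also 1 of the 7 markers. The part of Kupffer cell number in the level of Hmox1 was not tested.

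Between control livers of the 2 sexes, 2 of the 10 genes were called, Srxn1 and Gclc, both lower in females. This was beside 18 percent of 13699 genes called and 9.2 percent called lower, and DESeq2 called 3, beside 22.1 percent. The shares called are near the background, so the count says nothing particular about these genes. For Srxn1 the log2 difference, female over male, was -0.87 (SE 0.23, edgeR adjusted p = 0.0191), from 75.8 ± 28.6 CPM in males (SD, n = 5) to 41.6 ± 6.06 in females (SD, n = 6). Gclc had -0.50 (SE 0.16, adjusted p = 0.0494), from 185 ± 44.2 to 131 ± 22.9 CPM. Gsr lay just outside the threshold at -0.29 (SE 0.095, adjusted p = 0.0503), from 70.7 ± 5.57 to 57.9 ± 7.25 CPM. The other 7 had adjusted p of 0.257 or more. The groups overlapped for all 10 genes, as they did for all but 10.3 percent of genes tested.

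The call of Srxn1 was kept in 17 of 18 alternatives. It was lost without control male replicate 1, where the adjusted p was 0.0524, and without control male replicate 4 the adjusted p was 0.000594. The call of Gclc was kept in 6 of 18 and lost in 8 of the 11 fits that left out 1 library, with an adjusted p of up to 0.120 without control male replicate 1. Males and females were deposited in separate tables, so sex and table cannot be told apart.

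Over all 23 livers the 10 genes were not shown to vary as a block, which does not mean that they vary independently. Of 45 pairs, 29 had a Pearson r above 0 with group means removed, and 0 passed an adjusted permutation p of 0.05 over 23 livers. The highest r was that of Nqo1 with Srxn1, 0.64 (permutation p = 0.00548, adjusted p = 0.101), with a rho of 0.61 (permutation p = 0.00347, adjusted p = 0.0781). It was 0.39 without the 2 livers farthest from the median and 0.45 without control male replicate 4, so it rests partly on that library. Txnrd1 with Gsr, the genes of both reductases, had the same r of 0.64 (permutation p = 0.00265, adjusted p = 0.101) and a rho of 0.55 (permutation p = 0.00714, adjusted p = 0.0803). It was 0.42 without the 2 farthest livers, 0.63 within males and 0.71 within females. LKO female replicate 6 lay above the other LKO females in both genes, at 116 CPM of Txnrd1 and 64.1 CPM of Gsr. The r within females without that library is not given. The r of Nqo1 with Srxn1 was 0.93 within the 11 males, with a rho also of 0.93 (permutation p = 0.000400 and 0.000270, adjusted p = 0.0180 and 0.0121 over 45 pairs), and 0.18 within the 12 females. Within males it was 0.76 without the 2 farthest livers and 0.84 without control male replicate 4, where the adjusted permutation p was 0.0774.

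Another pair passed within females, with a negative sign. Nfe2l2 and Gclc had an r of -0.80 and a rho of -0.90 over the 12 females (permutation p = 0.000800 and 0.000410, adjusted p = 0.0360 and 0.0184 over 45 pairs), against an r of 0.40 in males. It was -0.69 without the 2 farthest livers and -0.74 without control female replicate 2, where the adjusted permutation p was 0.196, and 4 of 12 fits that left out 1 female kept the call. Whether the r of either pair differs between the sexes was not tested. Gclc and Gclm, whose proteins form 1 enzyme, had an r of 0.48 over 23 livers (permutation p = 0.0234, adjusted p = 0.202) and a rho of 0.38 (permutation p = 0.0887, adjusted p = 0.313).

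**Figure D3:**
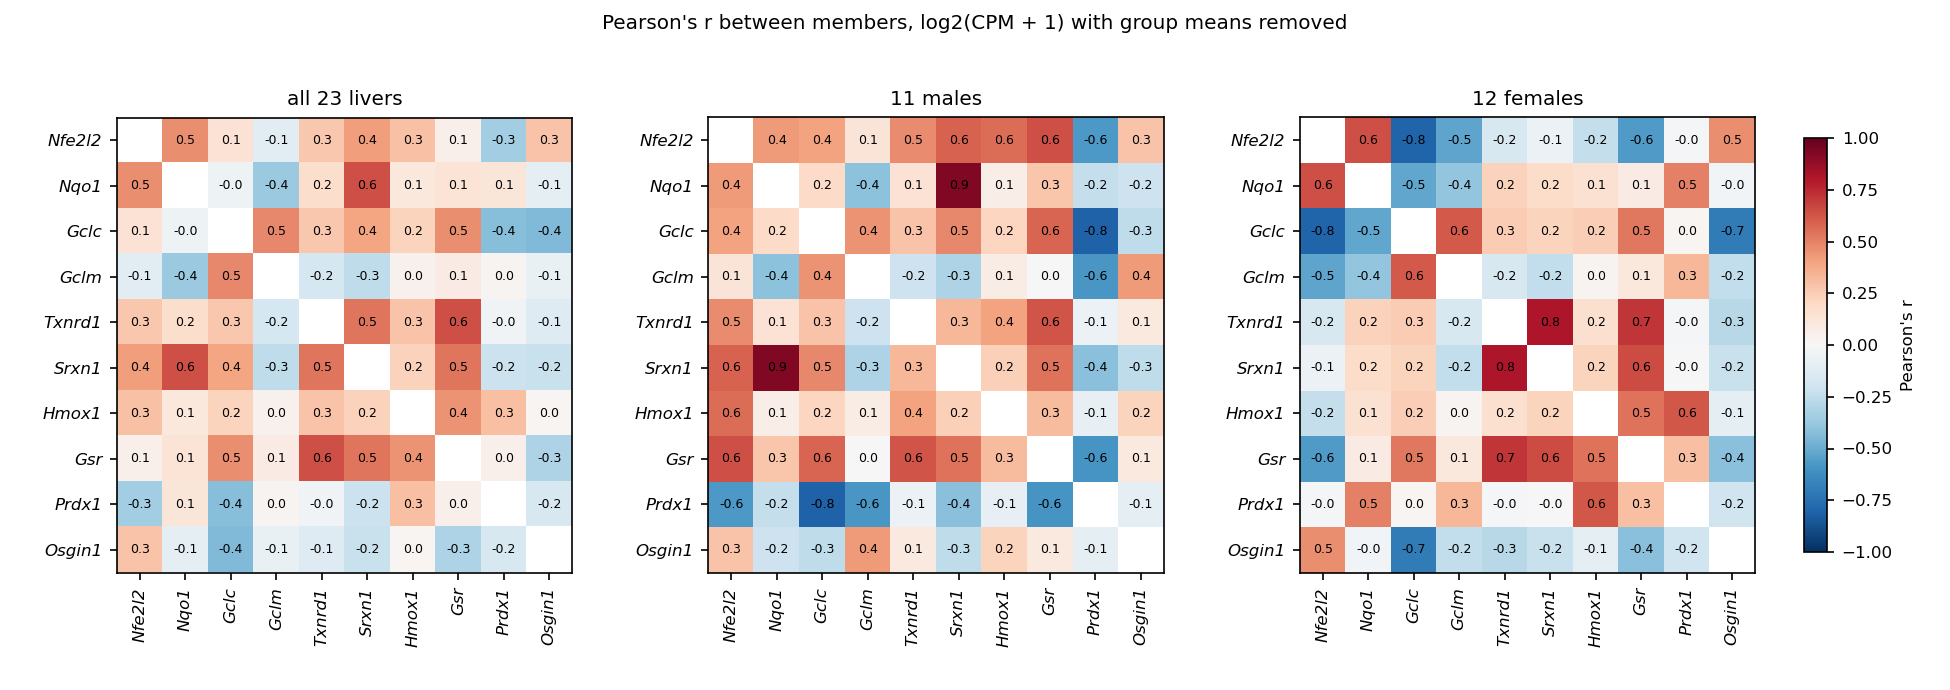
Pearson's r (colour and number in each cell) between the 10 genes across livers, on log2(CPM + 1) with the mean of each group removed, over all 23 livers, the 11 males and the 12 females. Nqo1 with Srxn1 is at 0.93 in males and 0.18 in females, and Nfe2l2 with Gclc at 0.40 in males and -0.80 in females.

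By the same measure over 14502 genes, the genes most like Nqo1 were Ifi27l2b at an r of 0.90, the glutathione S-transferase gene Gstm3 at 0.88 and Stoml1 at 0.84. Gstm3 belongs to a family of similar genes among which reads can be split. Those most like Gclc were Gm36787, Zfp512b and Cdc42bpa, at 0.76, 0.73 and 0.73. Their r with Gclc was 0.76, 0.90 and 0.81 within males and 0.78, 0.50 and 0.55 within females. Those most like Nfe2l2 were Phf19, Rasa4 and Apbb1, at 0.84, 0.80 and 0.78. Their r with Nfe2l2 was 0.96, 0.91 and 0.87 within males and 0.69, 0.39 and 0.36 within females. Whether these values differ between the sexes was not tested. No member was among the 3 genes most like Nqo1, Gclc, Hmox1 or Nfe2l2. The r values over all livers are the highest of many over the same 23 libraries, and all are given as a description.

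Other genes of the pathway were read from 6 lists with 50 genes, chosen with earlier results of these data known. Counts in these lists are therefore given as a description. Of the 50 genes, 48 passed the filter in both sexes, with the cystine carrier gene Slc7a11 and the glutathione peroxidase gene Gpx2 below it. In males 0 of 48 were called, beside the same 0.00724 percent of all genes, with 11 at an unadjusted p under 0.05 (12.5 percent of all genes) and 2 called by DESeq2 (0.826 percent of all genes). In females 2 of 48 were called, both higher in LKO livers, beside 1.42 percent of all genes. Over both sexes 2 of 48 were called, both higher, beside 0.365 percent.

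The detoxification and efflux genes held 2 of these 3 different genes. In this list 8 of 9 log2 fold changes were above 0 in males, with a median of 0.49, beside 52.1 percent of all genes. In females 7 of 9 were above 0, with a median of 0.25, beside 51.1 percent. At an unadjusted p under 0.05 there were 6 of 9 in males and 5 of 9 in females, beside 12.5 and 15.6 percent. The highest estimate of the list in males was 1.81, for a gene that was not called. Ephx1, microsomal epoxide hydrolase, measured 577, 468, 570, 420 and 390 CPM in control males 1, 2, 3, 4 and 6 and 509 to 765 CPM in LKO males. It had 232, 327 and 423 CPM as the lowest, median and highest of the control females and 399, 473 and 679 CPM in LKO females. LKO livers were higher with a narrow overlap in each sex. Ephx1 rose by a log2 fold change of 0.58 over both sexes (SE 0.11, edgeR adjusted p = 0.0184), a call kept in all 31 alternatives, and by 0.66 in females (SE 0.16, adjusted p = 0.0498), a call kept in 2 of 12 fits that left out 1 female. In males it was 0.49 (SE 0.14, adjusted p = 0.266), which DESeq2 called at an adjusted p of 0.0440.

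Aox1, an aldehyde oxidase, measured 42.6 to 68.6 CPM in control males and 70.7 to 101 CPM in LKO males, with no overlap. In females it measured 29.5 to 45.0 CPM in controls and 44.4 to 51.8 CPM in LKO livers. Its log2 fold change was 0.38 over both sexes (SE 0.086, edgeR adjusted p = 0.0495), a call kept in 7 of 31 alternatives with adjusted p of up to 0.0994. In males alone it was 0.51 (edgeR adjusted p = 0.245), which DESeq2 called at an adjusted p of 0.0224.

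Among glutathione genes, Gpx4, the peroxidase that reduces lipid peroxides within membranes, was higher in LKO females. Control females had 258, 317 and 330 CPM as the lowest, median and highest value and LKO females 365, 432 and 472 CPM, with no overlap, as for 1.58 percent of genes in females. Gpx4 rose by a log2 fold change of 0.49 in females (SE 0.091, edgeR adjusted p = 0.0156), and the call was kept in 20 of 21 alternatives, with an adjusted p of 0.119 in the fit of all 23 livers. In males it was -0.064 (SE 0.19, adjusted p = 0.931). The interaction of 0.55 (SE 0.21, adjusted p = 0.294) did not pass, so a difference between the sexes was not shown. RefSeq annotates pseudogene copies of Gpx4, and how shared reads were counted is not given in the sources used here. Gpx1, the cytosolic glutathione peroxidase, had -0.28 in males (adjusted p = 0.380) and 0.094 in females.

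The remaining lists held no called gene. Among 10 regulators of NRF2, including Keap1 and the small MAF genes, the median log2 fold change was 0.017 in males and -0.058 in females. Those of lowest p were Rbx1, a ubiquitin ligase subunit, in males (-0.10, edgeR adjusted p = 0.578), Btrc, a substrate adaptor of such ligases, in females (-0.20, adjusted p = 0.270) and the related factor Nfe2l1 over both sexes (0.13, adjusted p = 0.425). Of 6 genes for NADPH supply, 5 were below 0 in females, where 51.1 percent of all genes were above 0. Malic enzyme Me1 had the lowest value, -0.73 (SE 0.24, edgeR adjusted p = 0.138). DESeq2 called Me1 at an adjusted p of 0.0407 and the edgeR fit with a replicate block at 0.0368. Control female replicate 2 measured 432 CPM of Me1, against 144 to 259 in the other control females and 105 to 170 in LKO females. Tkt, transketolase, had the lowest p of this list in males at 0.099 (adjusted p = 0.876), and -0.035 without control male replicate 4.

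Of 11 thioredoxin, peroxiredoxin and superoxide enzymes, 9 were below 0 over both sexes, where 52.2 percent of all genes were above 0. Txnrd2, mitochondrial thioredoxin reductase, was at -0.21 there (SE 0.059, edgeR adjusted p = 0.110) and was called by DESeq2 (adjusted p = 0.0404). It also had the lowest p of the list in males, at -0.28 (adjusted p = 0.279). In females that was the catalase gene Cat, at -0.24 (adjusted p = 0.156), which DESeq2 called at an adjusted p of 0.0178. DESeq2 also called the interaction of Cat (-0.48, adjusted p = 0.0447), which edgeR did not (adjusted p = 0.193). Of the haem and iron genes, biliverdin reductase Blvrb was at 0.20 in males (adjusted p = 0.458) and the haem transporter Slc48a1 at 0.18 in females (adjusted p = 0.268) and 0.17 over both sexes (adjusted p = 0.355).

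**Figure D4:**
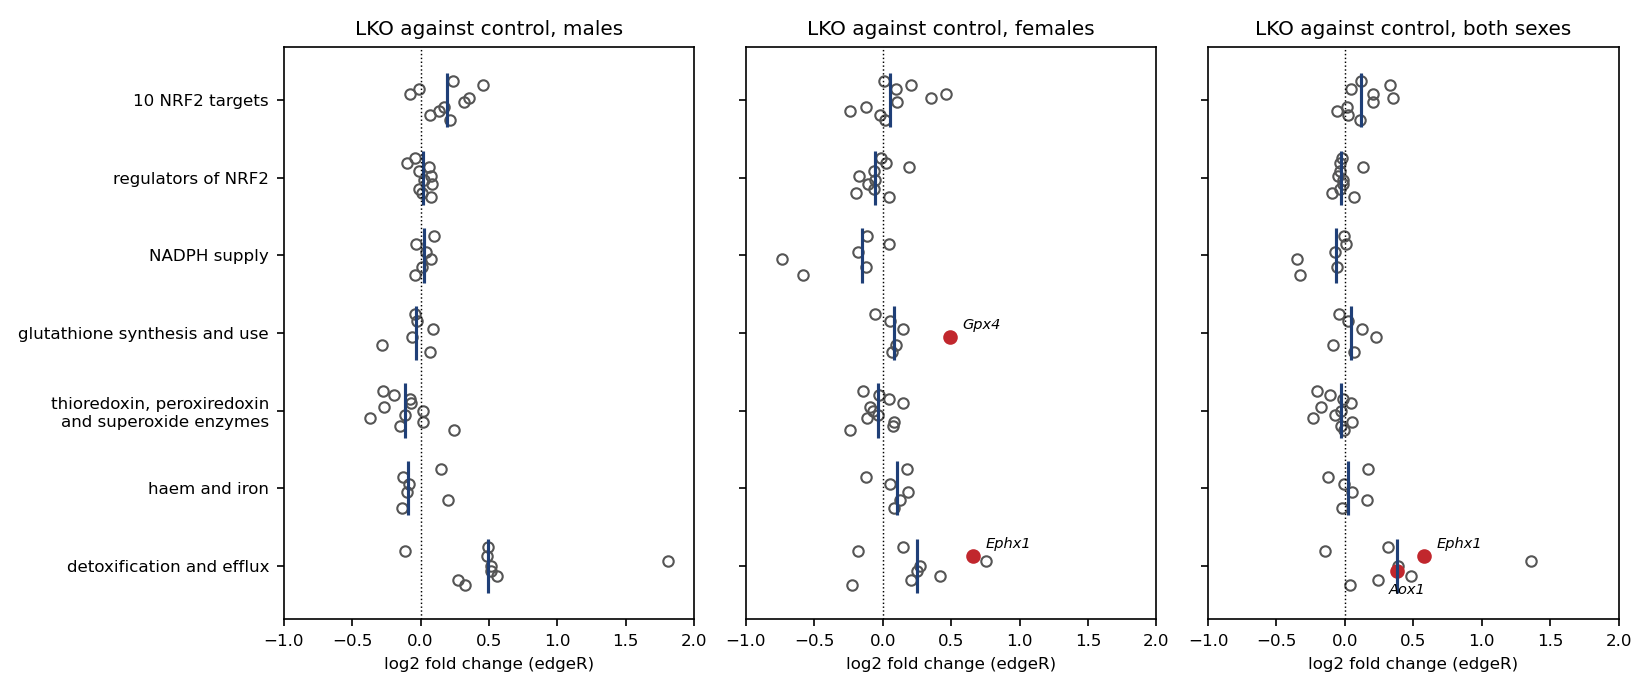
Log2 fold change of LKO over control (horizontal axes) for each tested gene of 7 lists (rows), in males, females and both sexes. Open circles did not pass an adjusted p of 0.05, red points did and are named, and the blue line is the median of the list, which for detoxification and efflux is 0.49, 0.25 and 0.38.

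Some markers of other cells were higher in LKO females. Of 6 markers of lipid-associated macrophages, 4 were called higher in LKO females, beside 1.42 percent of all genes, and 0 in LKO males, where Cpt1a was the only gene called. Their summed level was 61.5 to 88.8 CPM in control females and 92.5 to 154 CPM in LKO females. The sum was 61.3 to 253 CPM in control males and 58.6 to 294 CPM in LKO males. Of 5 cholangiocyte markers, all 5 were above 0 in females and 1 was called, Spp1, which is also in the macrophage list, so the sums of these lists are not independent. Their sum was 40.4 to 50.2 CPM in control females and 51.9 to 87.4 CPM in LKO females, with no overlap, and 33.4 to 134 and 36.0 to 161 CPM in control and LKO males. None of these markers was at 0 in all libraries. In the other lists 0 markers were called in females. There, 6 of 6 stellate cell and fibroblast, 5 of 5 erythroid, 3 of 3 tested lymphocyte and 2 of 2 tested neutrophil markers were above 0. Of Kupffer cell markers 1 of 7 was above 0, and of endothelial markers 1 of 5. In males 6 of 7 Kupffer cell, 4 of 5 endothelial and 4 of 6 stellate cell and fibroblast markers were above 0. Of the other lists in males, 3 of 4 tested lymphocyte, 0 of 5 erythroid and 0 of 2 tested neutrophil markers were above 0. No marker was called in males. The part of these cells in the values of the NRF2 genes, Gpx4 and Ephx1 in females was not tested.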

How the data were processed

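Poly(A) RNA of 23 mouse livers was sequenced from dUTP libraries, per the labels' protocols. The submitters' processing notes name HISAT2 2.0.5 and the build mm39. The counter, the annotation and whether counting used the strand are not given in the sources used here. The authors deposited 1 table per sex with raw read counts per gene, normalized count signal, FPKM, and log2 fold changes with p-values for LKO against control. The count and FPKM columns of all 23 samples were used, and of the authors' log2 fold changes and p-values only those of the members. The normalized signal was not used.

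Counts were tested with edgeR 4.0.16 in R 4.3.3 (filterByExpr, TMM, quasi-likelihood test, Benjamini-Hochberg over all genes tested, threshold 0.05), per sex, over both sexes with sex as a term, as an interaction and between controls. Fits across sexes used genes in both tables. SE is the absolute log2 fold change over the root of F, and 95% intervals use its degrees of freedom. Descriptive CPM were scaled by TMM over all 23 samples. Correlations used log2(CPM + 1) with group means removed and 100000 permutations within groups.

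Alternatives were RLE factors, library size alone, no filter, at least 10 counts in every sample, DESeq2 1.42.0, limma 3.58.1 on log2(FPKM + 1) or log2(FPKM + 0.1), all 23 samples in 1 fit, a replicate block and leaving out each library. Members and lists were chosen with earlier results of these data known. The rule for named genes took the members, Cpt1a, per list the gene of lowest p in males, females and both, every called listed gene, and the 3 genes most like Nqo1, Gclc, Hmox1 and Nfe2l2. No 2 libraries of a group agreed within sampling noise. The fits and the correlation test were tested on simulated data.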

Additional observations from a re-analysis of the deposited data

Results flagged for a closer look

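Among 40 sets of values (10 genes in 4 groups), 5 held 1 library far from the rest of its group by Dixon's test, and chance gives about 1 in 20. LKO female replicate 6 was the library in 3 of them. It had 161.9 CPM of Gclc, against 120 to 135 in the other LKO females. It had 116 CPM of Txnrd1, against 84.6 to 96.1. It had 64.1 CPM of Gsr, against 42.4 to 49.8. The glutathione and thioredoxin reductase genes and Gclc were thus high together in this liver, and its Srxn1 value, 79.0 CPM, was also the highest of its group. Its summed hepatocyte markers, 53086 CPM, were the lowest of the 12 females and its summed Kupffer cell markers, 1049 CPM, were the highest of the LKO females. Their part in these values was not tested.

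Control male replicate 6 had 85.4 CPM of Txnrd1, against 102 to 108 in the other control males. LKO male replicate 5 had 206 CPM of Gclm, against 171 to 182 in the other LKO males.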

How the results depend on the processing

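No alternative called any of the 10 genes for LKO against control in males, in females or over both sexes, or for the interaction. The lowest adjusted p over all alternatives was 0.141, 0.0935, 0.210 and 0.130. With 5 or 6 libraries a group, the 95% intervals of single genes reached a log2 of 1.02 in males and 0.91 in females, so differences below these sizes may be missed. No alternative moved the median of all genes by more than 0.1.

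The labels do not say that a replicate number marks a shared litter or batch. Same-numbered control and LKO libraries had correlations of -0.377 to 0.417 in males and of -0.0134 to 0.183 in females, where 5 of 6 pairs were over 0.1 and 4 of 6 correlated best with their own number. As not every pair was over 0.1 in either sex, the numbers were not taken to pair the samples. That rule cannot exclude a pairing, so the fits with a block are given as well. With the number as a replicate block, 0 of the 10 genes were called in all 4 of these comparisons, Me1 in females was called (-0.66, adjusted p = 0.0368), Prdx1 in males was 0.019, Tkt over both sexes was 0.018, and 1 related gene was called over both sexes. Calls over all genes went from 194 to 334 in females, from 53 to 23 over both sexes and from 1 to 2 in males.

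Of related genes, DESeq2 called 2 in males and 4 in females. In females 1 was called with RLE factors, with limma on log2(FPKM + 1) or log2(FPKM + 0.1) and in the fit of all 23 samples. Over both sexes 1 was called with RLE factors, without a filter and with limma on log2(FPKM + 1). Leaving out single libraries gave 1 to 2 in females and 1 to 2 over both sexes, with 1 without control male replicate 4. Between control sexes, 1 member was called with library size alone and without a filter, and 0 to 3 with single libraries left out, with 0 without control male replicate 1 and 3 without replicate 4. Gsr was called by RLE factors, the stricter filter, DESeq2 and limma. Of the pairs, 1 passed within males and 1 within females, and 0 to 1 with single libraries left out.

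Signs of values near 0 changed. With library size alone Prdx1 in males was 0.048, Gclm in females 0.023, and over both sexes Cat was 0.041, Rbx1 0.014 and Tkt 0.029. Txnrd1 in females was -0.0034 and -0.0040 with limma on log2(FPKM + 1) and log2(FPKM + 0.1), and the interaction of Nqo1 was 0.0047 with the stricter filter. With single libraries left out, ranges in males were -0.042 to 0.024 for Prdx1, -0.16 to 0.012 for Osgin1, -0.085 to 0.081 for Btrc, -0.21 to 0.027 for Gpx4, -0.081 to 0.20 for Me1 and -0.035 to 0.18 for Tkt. In females they were -0.060 to 0.10 for Gclc, -0.078 to 0.012 for Gclm, -0.056 to 0.043 for Txnrd1 and -0.021 to 0.048 for Rbx1. Over both sexes they were -0.0028 to 0.039 for Gclm, -0.052 to 0.080 for Hmox1, -0.048 to 0.015 for Cat and -0.077 to 0.040 for Tkt. For the interaction they were -0.16 to 0.18 for Nqo1, -0.13 to 0.020 for Blvrb and -0.075 to 0.11 for Slc48a1. The cause of these changes was not tested.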
